A study of Mus musculus with 6 samples.

Results

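A set of 8 haemoglobin genes of the mouse, 3 of the alpha type and 5 of the beta type, was described in irradiated and non-irradiated femur. They were taken by gene name from a table of 43346 genes, and all 8 were found. The theta-type genes Hbq1a and Hbq1b are not in this set and are given with the other globins. The animals were C57BL/6 mice aged 4 months. A single X-ray dose of 24 Gy (gray, the unit of absorbed dose) was aimed at 5 mm of the distal metaphysis of the right femur, at 6.6 Gy per minute, and the left femur of the animals received none. Pieces of 5 mm were cut from both legs on day 21 and freed of muscle, and poly(A) RNA libraries were sequenced, 3 from radiated (R) and 3 from non-radiated (NR) bone. The control leg belongs to an irradiated animal, so no library comes from a mouse without radiation. No allele or transgene is named in the labels, and they do not say whether a library is 1 animal or a pool.

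Haemoglobin carries oxygen in red cells as a tetramer of alpha-type and beta-type chains, each of which holds a haem group. In the mouse the alpha-type genes lie on chromosome 11 and the beta-type genes on chromosome 7. Hba-x (zeta), Hbb-y (epsilon-y) and Hbb-bh1 are used in the primitive red cells of the embryo, and Hba-a1, Hba-a2, Hbb-bs and Hbb-bt in the adult. Erythroblasts of the marrow build up globin mRNA as they mature, and reticulocytes still carry it after they have lost their nucleus. Hbb-bh2, a beta-like gene of the same cluster, was kept apart from the embryonic genes.

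In the deposited table the alpha-type genes of the set lay within 20.9 kb, in the order Hba-x (ENSMUSG00000055609, chr11:32276400-32278116), Hba-a1 (ENSMUSG00000069919, chr11:32283511-32284465) and Hba-a2 (ENSMUSG00000069917, chr11:32296489-32297298). The beta-type genes lay within 40.7 kb, in the order Hbb-bt (ENSMUSG00000073940, chr7:103812524-103813996), Hbb-bs (ENSMUSG00000052305, chr7:103826534-103828096), Hbb-bh2 (ENSMUSG00000078621, chr7:103839145-103840427), Hbb-bh1 (ENSMUSG00000052217, chr7:103841636-103843164) and Hbb-y (ENSMUSG00000052187, chr7:103851745-103853240). The build is mm10, the same assembly as GRCm38, per the submitters' processing notes. In GENCODE M21 these alpha-type genes are on the plus strand and these beta-type genes on the minus strand, and each has 3 exons.

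The adult genes come as pairs of near-identical copies, and the counts have to be read with this in mind. The coding sequences of Hba-a1 and Hba-a2 (426 bases each) differ at 1 position, and so do those of Hbb-bs and Hbb-bt (441 bases each). The stretches around these positions, read on the coding strand of GENCODE M21 transcripts, are shown because they hold the only coding bases that tell the copies apart, in capitals. Counted from 1 at the A of the start codon, with the base of Hba-a1 or Hbb-bs first, the differences are C381T between the alpha copies and C417T between the beta copies.
Hba-a1: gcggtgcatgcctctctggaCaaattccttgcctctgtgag
Hba-a2: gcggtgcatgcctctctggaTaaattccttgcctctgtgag
Hbb-bs: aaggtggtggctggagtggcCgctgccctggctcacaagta
Hbb-bt: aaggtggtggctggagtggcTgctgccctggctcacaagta

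Of all runs of 50 bases in the longest coding transcript, 67.5% in Hba-a1 and 86.9% in Hba-a2 also occurred in the other alpha copy. For Hbb-bs and Hbb-bt these shares were 65.8% and 58.3%. No run of 50 bases of these 4 genes occurred in a GENCODE transcript of any gene other than the copy. With runs of 100 bases the shares were 56.5%, 74.5%, 62.6% and 54.8% in the same order. The embryonic genes and Hbb-bh2 shared no run of either length with another gene. Read length and the treatment of reads that match several places are not given in the sources used here, so the split of counts between adult copies is uncertain, and counts may leave out part of the reads. Sums over both copies of a chain do not depend on how shared reads are split, but do depend on whether they were kept.

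The 110 bases upstream of the start sites were read from the RefSeq promoter table for GRCm38.p6, which held 7 of the 8 genes. The windows shown are those of Hba-a2, the member with a called difference, and of Hbb-bs and Hbb-y, the adult and embryonic beta-type genes with the highest levels. Capitals mark the motifs CCAAT (a box bound by NF-Y), CACCC (the box bound by Klf1-type factors), GATAA (bound by Gata factors) and TATAA (the TATA box), searched on both strands. Some GENCODE M21 transcripts start further upstream than in RefSeq, and up to 27 bases of the windows shown are exonic there. All 110 bases of the Hba-a1 and Hba-x windows and 73 of the Hbb-bt window, used here for motif counts only, are exonic in such transcripts.
Hba-a2, chr11:32296382-32296491, plus strand: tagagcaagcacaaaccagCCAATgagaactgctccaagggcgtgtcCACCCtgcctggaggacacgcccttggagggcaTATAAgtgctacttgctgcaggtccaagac
Hbb-bs, chr7:103827929-103828038, minus strand: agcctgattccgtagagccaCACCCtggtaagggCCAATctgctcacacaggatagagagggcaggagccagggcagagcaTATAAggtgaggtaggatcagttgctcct
Hbb-y, chr7:103853208-103853317, minus strand: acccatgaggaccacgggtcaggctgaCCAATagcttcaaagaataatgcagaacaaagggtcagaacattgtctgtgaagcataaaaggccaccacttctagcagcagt

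All 4 adult genes held the CCAAT box, the CACCC box and TATAA in this window. Hbb-bt held CACCC at 2 places, and CCAAT at 1 place as written and at 2 in reverse complement. No matches of different motifs overlapped. Hba-x held CACCC with TATAA and with GATAA, and Hbb-y held CCAAT alone. Of 32851 upstream windows of this length in the table, 20.2% held CCAAT, 29.6% CACCC, 9.43% GATAA, 10.9% TATAA, and 5.42% both CCAAT and CACCC. The upstream bases of Hba-a1 and Hba-a2 were the same at all 247 positions compared, after a shift of 3 bases between the annotated starts. Those of Hbb-bs and Hbb-bt agreed at 51.0% of 249 positions. Both comparisons were made without gaps, at a single shift of a few bases. An inserted or missing base puts the bases beyond it out of register and lowers such a value. It is therefore not set against the coding sequences, which were aligned with gaps. A match describes the letters in this window and no binding was measured.

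The libraries held between 34034251 and 48708383 gene counts, and the summed counts of the 4 adult genes ran from 479211 to 1212385 per library. In non-radiated library 2 the single row AY036118 took up 32.9% of the counts, against 0.321% to 5.61% in the other libraries. Marker lists for bone-forming cells and neutrophils made up 0.599% to 1.30% and 1.36% to 1.72% of counts in non-radiated libraries, so markers of the labelled tissue and of its marrow were both detected. A list of 12 skeletal muscle genes held 0.0181% to 0.0260% of counts in non-radiated libraries, and 0.0846%, 0.288% and 0.0221% in radiated libraries 1, 2 and 3. Acta1, Ckm and Myh1, of the muscle fibre, stood at 204, 138 and 93.0 CPM in radiated library 2 (CPM, counts per 1000000 on the effective library sizes of edgeR's TMM scaling). The part of the muscle signal in the results was not tested, and values without both libraries numbered 2 are given beside those they move. In bulk tissue fewer cells of a type and less RNA per cell cannot be told apart.

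Compared per length, as CPM per kilobase, Hbb-bs stood highest of the 8 genes, at 9027 ± 780 in non-radiated and 11338 ± 1288 in radiated libraries (mean ± SD, n = 3 each). Hbb-bt followed at 8274 ± 386 and 8828 ± 100. The ranges of the beta copies overlapped among non-radiated libraries (8243 to 9802 for Hbb-bs, 7935 to 8694 for Hbb-bt), and did not among radiated ones. Hba-a2 came next at 3835 ± 130 and 4880 ± 391, and Hba-a1 at 2292 ± 343 and 2875 ± 434, with no overlap between the alpha copies in either group. On this scale Hbb-bs ranked between 3 and 5 among all genes of a library, Hbb-bt between 4 and 6, Hba-a2 between 7 and 10 and Hba-a1 between 10 and 15. The handling of reads shared by the copies is not known, so the adult levels, ranks and order within a pair are uncertain. The other 4 genes stood at 0 to 0.750 CPM per kilobase. Hba-x, Hbb-bh1 and Hbb-y overlapped one another in both groups, and Hbb-bh2 was at 0 in 4 libraries.

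**Figure D1:**
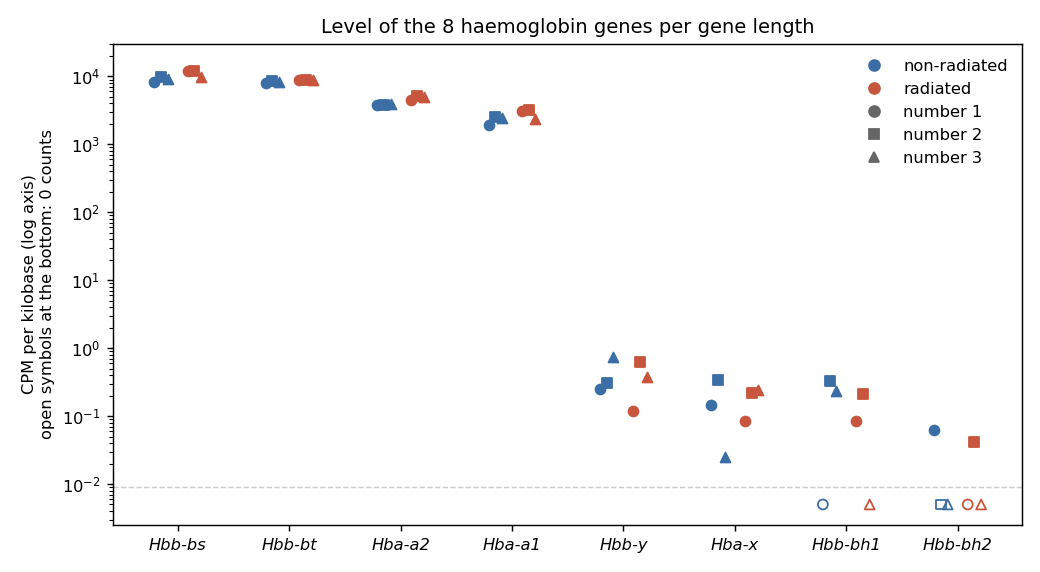
Level of each haemoglobin gene of the set per gene length (CPM per kilobase, log axis) in 3 non-radiated and 3 radiated libraries, 1 symbol per library, with counts of 0 as open symbols at the bottom. The 4 adult genes lie above 1000 and the other 4 below 1.

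Summed adult haemoglobin was higher in each radiated library than in any non-radiated library. By gene, Hba-a1, Hba-a2 and Hbb-bs had fitted differences of about the same size, and Hbb-bt a smaller one. Of the 5 members that passed the filter on low counts (the adult 4 and Hbb-y), 1 had an edgeR adjusted p under 0.05, Hba-a2, which was higher. Among all 18757 genes tested 7.8% were called, 4.56% higher and 3.24% lower, and nothing is read from 1 call among 5 genes. Hba-x, Hbb-bh1 and Hbb-bh2 did not pass the filter.

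Hba-a2, an adult alpha gene, was at 2495, 2523 and 2657 CPM in non-radiated libraries 1, 2 and 3, and at 2959, 3448 and 3359 CPM in radiated libraries 1, 2 and 3. The groups did not overlap, and the non-radiated libraries lay close together. The quasi-likelihood test of edgeR gave a 1.27-fold rise, 0.35 on the log2 scale with a standard error (SE) of 0.09, at an adjusted p of 0.0499. The call lay at the threshold and was lost in 9 of 16 alternatives, among them each of the 6 fits that left out 1 library. Over all settings its adjusted p ran from 5.57e-05, with DESeq2's Wald test, to 0.313, without both libraries numbered 2.

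Hbb-bs, the adult beta gene with the highest level, was at 7114, 8459 and 7798 CPM in the non-radiated libraries and at 10476, 10376 and 8502 CPM in the radiated ones. Radiated library 3 was just above non-radiated library 2, and radiated libraries 1 and 2 stood well above both. The fitted log2 difference was 0.33 with an SE of 0.13, which edgeR did not call (adjusted p 0.182). Within library numbers 1, 2 and 3 the log2 difference was 0.56, 0.29 and 0.12.

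Hba-a1, the other adult alpha gene, had 1540, 2039 and 2004 CPM without radiation and 2476, 2593 and 1933 CPM with it, for libraries 1, 2 and 3. Here the groups overlapped, since radiated library 3 was below 2 of the non-radiated libraries. Its fitted log2 difference, 0.33 with an SE of 0.14, was not called by edgeR (adjusted p 0.218). With 1 library left out it ran from 0.21 (without non-radiated library 1) to 0.44 (without radiated library 3). Under library totals alone it was 0.54.

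Hbb-bt, the other adult beta gene, had 5578, 6112 and 5760 CPM in the control leg and 6181, 6285 and 6151 CPM in the radiated leg. All radiated values were higher, by a small margin. The fitted log2 difference was 0.09 with an SE of 0.10, which edgeR did not call (adjusted p 0.648). Of the adult genes 3 of 4 thus had groups that did not overlap, with the radiated group higher, a pattern met by 14.4% of all genes tested. DESeq2's Wald test, with 10.3% of genes called, gave adjusted p of 0.0332 for Hba-a1, 5.57e-05 for Hba-a2 and 0.00328 for Hbb-bs, and did not call Hbb-bt (0.493).

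**Figure D2:**
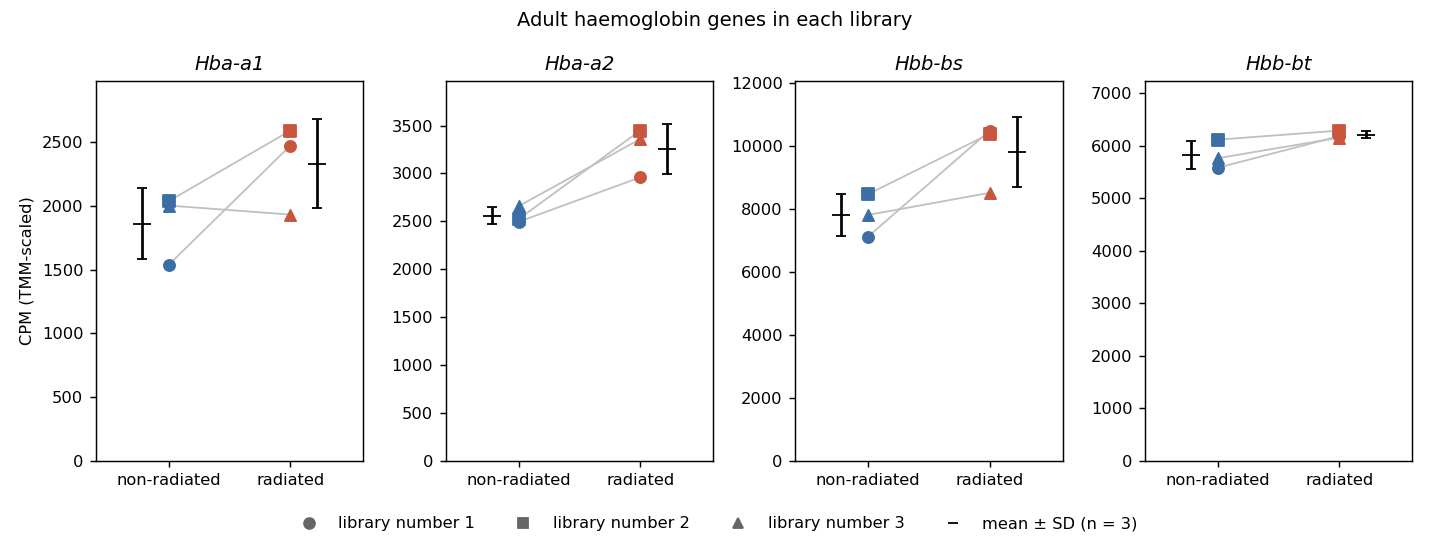
CPM (TMM-scaled, axes from 0) of the 4 adult haemoglobin genes, with a symbol per library, grey lines joining libraries of the same number, and bars for mean ± SD (n = 3). Only Hba-a1 has a radiated library (number 3, 1933 CPM) below non-radiated ones; Hbb-bt moves least.

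The 4 adult genes together made up 1.79%, 1.38% and 1.88% of gene counts in the control leg (libraries 1, 2 and 3), and 2.33%, 2.49% and 2.15% in the radiated leg. The 95% Wilson intervals, which cover counting error only, were at most 0.00986 percentage points wide. The lowest share was that of non-radiated library 2, the library with the large AY036118 row. The means were 1.69 ± 0.267% and 2.32 ± 0.169% (SD, n = 3 each), a ratio of 1.38, with a two-sided exact permutation p of 0.1. This is the smallest p that 3 against 3 libraries allow, and it was 0.35 after Benjamini-Hochberg adjustment over the 7 shares and ratios tested.

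With AY036118 left out of the total, the shares were 1.832%, 2.06% and 1.995% in the control leg and 2.46%, 2.497% and 2.249% in the radiated leg. The groups again did not overlap. The means were 1.96 ± 0.118% and 2.40 ± 0.134% (SD, n = 3 each), a ratio of 1.22 (log2 ratio 0.29), and non-radiated library 2 moved from the lowest of the 6 to the highest of its group. On the TMM scale the summed adult genes had means of 18026 ± 1215 and 21580 ± 1448 CPM (SD, n = 3 each), a log2 ratio of 0.26, against 0.46 with all gene counts as the total. The latter was 0.34 without non-radiated library 2 and 0.29 without both libraries numbered 2.

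**Figure D3:**
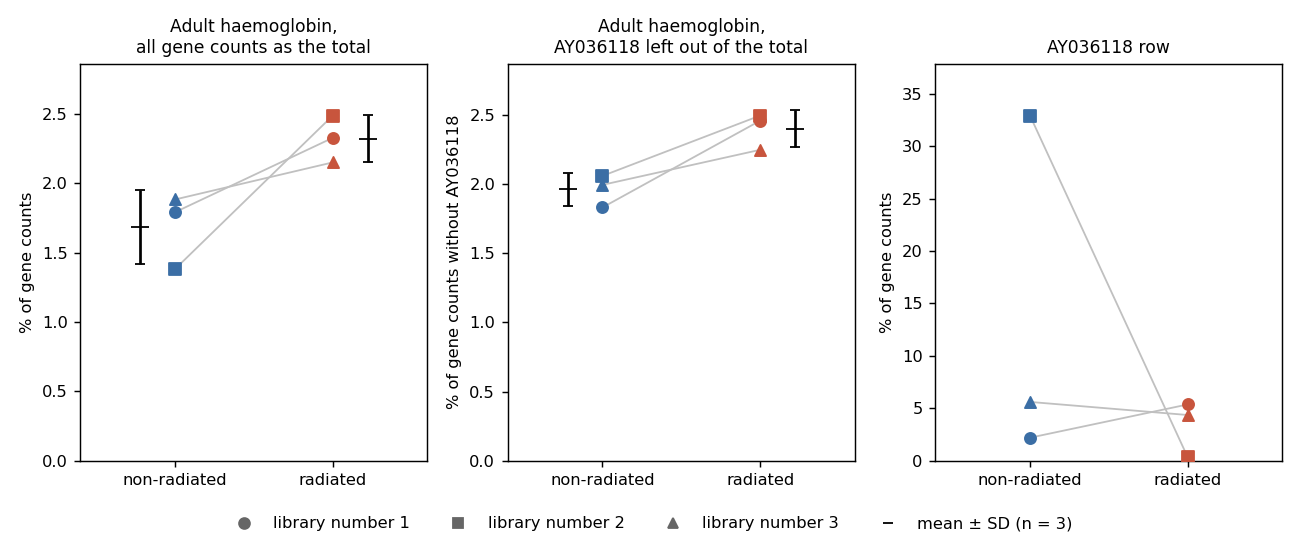
Adult haemoglobin (4 genes) as a percent of gene counts with all counts as the total (left) and without AY036118 (middle), and the AY036118 row itself (right), 1 symbol per library, with mean ± SD (n = 3) on the left and middle. The groups do not overlap in either haemoglobin panel, and non-radiated library 2 moves from 1.38% to 2.06%.

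Within the adult beta pair, Hbb-bt made up 44.0%, 41.9% and 42.5% of counts in the control leg (libraries 1, 2 and 3), and 37.1%, 37.7% and 42.0% in the radiated leg. It was lower in the radiated library of each number, but radiated library 3 was slightly above non-radiated library 2, so the groups overlapped. The means were 42.8 ± 1.04% and 38.9 ± 2.65% (SD, n = 3 each), a difference of -3.86 percentage points (two-sided exact permutation p = 0.2). Without radiated library 3 the difference was -5.38 points, and without radiated library 1 it was -2.94.

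Within the adult alpha pair, Hba-a2 made up 61.8%, 55.3% and 57.0% of counts in the control leg and 54.4%, 57.1% and 63.5% in the radiated leg. Neither group stood above the other, with means of 58.0 ± 3.39% and 58.3 ± 4.64% (SD, n = 3 each; two-sided exact permutation p = 0.9). The sign of the difference, 0.28 points, turned when non-radiated library 2, non-radiated library 3 or radiated library 3 was left out (-1.09, -0.24 and -2.29). Wilson intervals of these shares within a library were at most 0.577 points wide, and do not cover the uncertain split of shared reads.

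The ratio of adult alpha to adult beta counts was 0.318, 0.313 and 0.344 in the control leg and 0.326, 0.363 and 0.361 in the radiated leg. It was higher in the radiated library of each number. The mean difference on the log2 scale was 0.11, with overlapping groups (two-sided exact permutation p = 0.2). It was 0.05 without both libraries numbered 2. The level of the ratio also depends on whether reads shared by the copies were kept.

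Set against other transcripts of the same lineage, adult haemoglobin counts were 1.59, 1.63 and 1.68 times the summed counts of 18 red cell membrane and skeleton genes in the control leg (libraries 1, 2 and 3). In the radiated leg they were 2.24, 2.04 and 2.02 times those counts. All radiated values lay above all non-radiated ones, with a gap larger than the spread within either group. The mean difference was 0.37 on the log2 scale. Its two-sided exact permutation p was 0.1, the smallest possible, and 0.35 after Benjamini-Hochberg adjustment over the 7 shares and ratios tested. The difference does not depend on the library total or on AY036118. With 15 genes of haem synthesis and mitochondrial iron import in place of the membrane genes it was 0.29, and without both libraries numbered 2 it was 0.38.

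**Figure D4:**
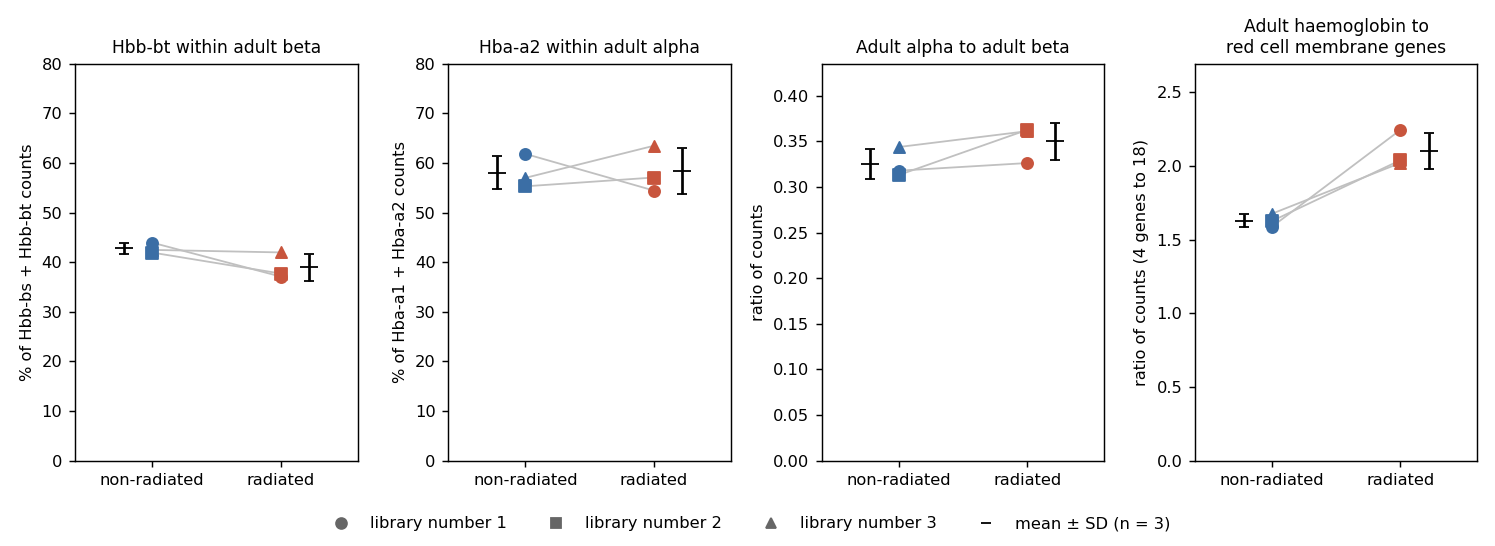
Per library, from left to right: Hbb-bt as a percent of adult beta counts, Hba-a2 as a percent of adult alpha counts, adult alpha to adult beta counts, and adult haemoglobin to red cell membrane gene counts (axes from 0; grey lines join library numbers; bars are mean ± SD, n = 3). Only in the rightmost panel do the groups separate, at 1.59 to 1.68 and 2.02 to 2.24.

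The embryonic genes were at the edge of detection. Hbb-y, the epsilon-type chain, had 6, 5 and 21 counts in the control leg (libraries 1, 2 and 3) and 3, 22 and 11 in the radiated leg. Hba-x, the zeta chain that pairs with it, had 5, 8 and 1 counts in the control leg and 3, 11 and 10 in the radiated leg. Both showed overlapping groups with no common order.

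Hbb-bh1, another embryonic beta-type gene, had 0, 5 and 6 counts in the control leg and 2, 7 and 0 in the radiated leg. A count of 0 allows up to 0.0881 counts per 1000000 gene counts in non-radiated library 1 and 0.0725 in radiated library 3 (3 counts of the total). Hbb-bh2 had 1 count in non-radiated library 1 and 1 in radiated library 2, and 0 in the other 4 libraries. No difference was detectable for these genes at this depth. For Hbb-y, the only one of them fitted, the fitted log2 difference was -0.22 with an SE of 0.60 (adjusted p 0.880 by edgeR). It was 0.15 with radiated library 1 left out and -0.99 with both libraries numbered 2 left out.

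Hba-x, Hbb-bh1 and Hbb-y together gave 18.04, 37.56 and 36.26 counts per 1000000 adult haemoglobin counts in the control leg, and 9.57, 33.0 and 23.6 in the radiated leg. This ratio was lower in the radiated library of each number, with overlapping groups. The means were 30.6 ± 10.9 and 22.1 ± 11.8 (SD, n = 3 each; two-sided exact permutation p = 0.5), and they rest on 8 to 40 embryonic counts per library. The log2 ratio, -0.47, was -0.11 without radiated library 1, -0.30 without non-radiated library 2, -0.74 without non-radiated library 1, -0.89 without radiated library 2 and -0.71 without both libraries numbered 2. Per 1000000 gene counts the embryonic sum was 0.508 ± 0.180 and 0.517 ± 0.299 (SD, n = 3 each; two-sided exact permutation p = 1). The sign of that difference turned with AY036118 left out of the total (log2 ratio -0.20, against 0.02).

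The other erythroid genes had lower log2 fold changes than Hba-a1, Hba-a2 and Hbb-bs, and 6 of them lay above Hbb-bt. Over 6 erythroid lists of 86 genes, 85 were tested, of which 71 had a negative and 14 a positive log2 fold change on the TMM scale, with a median of -0.10 against 0.00 over all genes tested. Under library totals alone, which shift the median of all genes to 0.19, 72 of the 85 were positive with a median of 0.10. None of the 85 was called there, against 1000 among all genes tested. Without both libraries numbered 2 the TMM-scaled median was -0.12. Directions of single lists are on the TMM scale, and each list's median was positive under library totals alone, at 0.07 to 0.13. No gene of the 85 was called higher and 5 were called lower, 5.88% against the 3.24% called lower among all genes. The lists also hold early progenitor genes, so they are not limited to genes of red cells. None of the called genes was in the haem synthesis or red cell membrane list. The calls depended on the setting. Calls among all genes, 1463 in the main fit, moved as well. There were 2 erythroid calls without non-radiated library 2 or radiated library 1 (819 and 764 among all genes). There were 3 without non-radiated library 1 or radiated library 3 (905 and 1345), 7 with the replicate block (1670) and 12 with DESeq2's Wald test (1938, 10.3% of genes). Without both libraries numbered 2 there were 5 (779 among all genes), of which 3 were among the original 5, with Kit and Trim58 lost. Of the 16 alternatives, Gata2 was called in 15, Kit in 14, Car1 in 12, Alox15 in 10 and Trim58 in 5. The highest value among the 85 was 0.17, for the catalase gene Cat, and none reached the 0.33 of Hba-a1. The difference between haemoglobin and these lists was tested only as the ratio to membrane genes.

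The haem synthesis list had 14 of 15 genes lower and none called, with a median of -0.13. Alas2, the erythroid enzyme of the first step, was the 1 gene with a positive value, at 1280, 1414 and 1208 CPM in the control leg and 1437, 1484 and 1343 CPM in the radiated leg (log2 fold change 0.13, adjusted p 0.433 by edgeR). Alad, the enzyme of the next step, had a value of -0.08. In the membrane list 17 of 18 genes were lower, none called, with a median of -0.11. Slc4a1, the anion exchanger band 3, was at 2776, 3215 and 3076 CPM in the control leg and 2729, 3115 and 2727 CPM in the radiated leg, and its groups overlapped. Its log2 fold change was -0.08 (adjusted p 0.699 by edgeR).

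Among transcription factors and cofactors of the globin loci 12 of 17 tested genes were lower and none was called, with a median of -0.07. Klf1, which activates the adult beta genes, was at 52.4, 52.9 and 55.3 CPM in the control leg and 46.0, 61.5 and 47.4 CPM in the radiated leg (log2 fold change -0.05, adjusted p 0.835 by edgeR). Gata1 and Tal1, general factors of the lineage, had log2 fold changes of -0.29 and -0.22 with no overlap between groups and edgeR adjusted p of 0.0902 and 0.125. Of 16 alternatives, Gata1 was called in 5 and not called in 11. Its edgeR, DESeq2 and limma adjusted p ran from 0.00763 to 0.846 over them. The calls included the replicate block (edgeR adjusted p 0.0289) and the fit without both libraries numbered 2 (0.0298). In bulk tissue the values of these factors are not limited to red cell precursors, and the part of other cells was not tested.

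Of 13 tested genes for haem sensing and red cell protection 1 was called. Car1, the carbonic anhydrase of red cells, was at 247, 275 and 190 CPM in the control leg and 157, 166 and 128 CPM in the radiated leg. By edgeR its log2 value fell by 0.66 with an SE of 0.14 (adjusted p 0.0197). Eif2ak1, the haem-sensing kinase that holds back globin translation, and Prdx2, a red cell peroxiredoxin, had values of -0.09 and -0.14. The alpha-chain chaperone Ahsp was not analysed here.

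All 10 genes of the list of receptors and early progenitor genes had negative values and 2 were called. Kit, the stem cell factor receptor, fell by 0.40 (edgeR adjusted p 0.00454) and Gata2, a factor of early progenitors, by 0.60 (0.00542), with no overlap between groups. Epor, the erythropoietin receptor, and Tfrc, the transferrin receptor, had values of -0.14 and -0.23. Of the 14 late maturation genes 12 were lower and 2 called. Trim58, a ubiquitin ligase of late erythroblasts, fell by 0.24 (edgeR adjusted p 0.0472, and 0.0694 with the replicate block) and Alox15 by 0.88 (0.0398). Bnip3l, which clears mitochondria, and Trim10 had values of -0.02 and -0.10. Among marker lists of other cells, all 10 megakaryocyte genes, 4 of 12 bone genes and 1 of 10 neutrophil genes were called lower, against 3.24% of all genes. All 10 B cell genes and 7 of 8 adipocyte genes were called higher, against 4.56% of all genes. Their part in the haemoglobin values and in those of the erythroid lists was not tested.

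**Figure D5:**
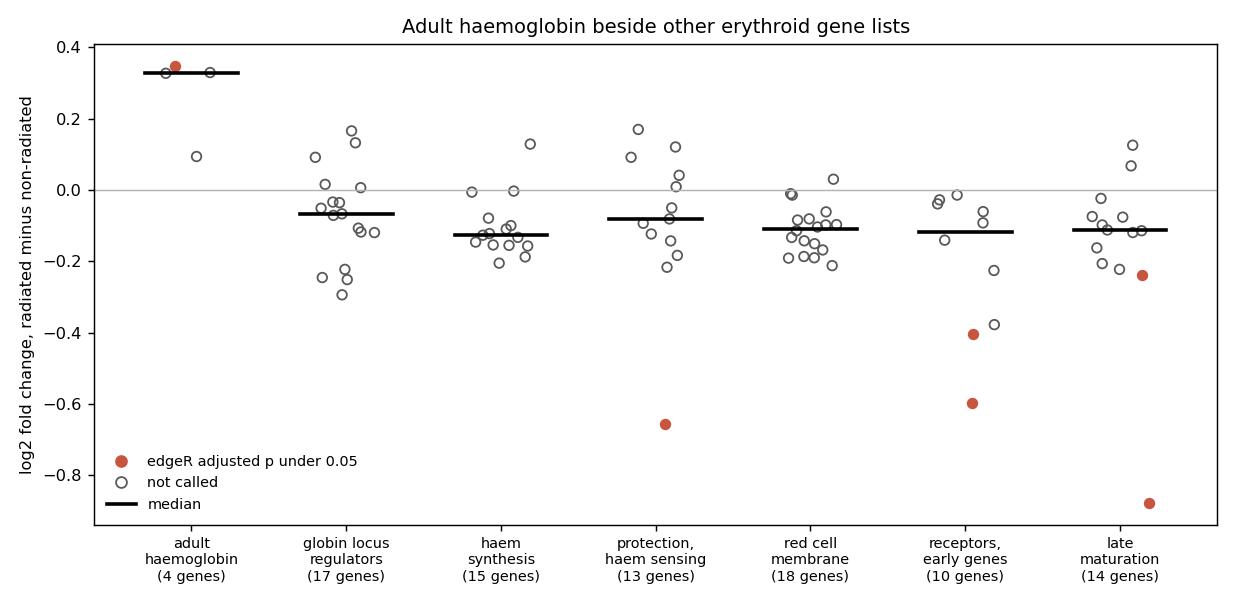
Log2 fold change (radiated minus non-radiated, edgeR) of the 4 adult haemoglobin genes and of the tested genes of 6 erythroid lists, 1 circle per gene (filled where the adjusted p is under 0.05) with a bar at the median. Hba-a1, Hba-a2 and Hbb-bs lie above every gene of the 6 lists, whose medians run from -0.13 to -0.07 on the TMM scale and from 0.07 to 0.13 under library totals alone.

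Of the other globins, Hbq1b and Hbq1a, theta-type genes beside the adult alpha genes, stood at 15.6 to 20.2 and 3.56 to 4.52 CPM over the 6 libraries. Their log2 fold changes were -0.14 and -0.02 (edgeR adjusted p 0.459 and 0.964). Mb, the myoglobin of muscle, was at 43.6 CPM in radiated library 2 and at 1.51 to 5.11 CPM in the other libraries. Cygb, the cytoglobin of stromal cells, was at 2.22, 2.60 and 2.81 CPM in the control leg and 5.07, 4.78 and 3.20 CPM in the radiated leg, a rise of 0.77 on the log2 scale with an SE of 0.20 by edgeR (adjusted p 0.0453). The call was lost with the replicate block (adjusted p 0.0562) and in 8 of 16 alternatives in all, over which edgeR, DESeq2 and limma adjusted p ran from 0.00915 to 0.185.

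The genes whose level followed summed adult haemoglobin most closely over the 6 libraries were Gm25117, Plin2, Pld3, Trim14, Lztr1 and Psap, by Pearson's r of log2 CPM among 10030 genes whose mean level reached 10 CPM. Their r ran from 0.986 to 0.993, which is a description of 6 libraries that share their scaling. For 32 genes of haem synthesis and the red cell membrane the median r was -0.22, with a range from -0.77 to 0.81.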

How the data were processed

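Raw counts per gene were deposited by the authors in 1 table, with RPKM values beside them. STAR 2.5.2b, featureCounts (Subread) and build mm10 are named per the submitters' processing notes. The deposited RPKM followed from the counts, the gene length with 1 base added, and a scale for each library of 5.55 to 6.91 times its gene count total, and was not used further. Tests on the counts used edgeR 4.0.16 under R 4.3.3 (filterByExpr with minimum count 10 and minimum total 15, TMM, glmQLFit and glmQLFTest, group as the only term, Benjamini-Hochberg over all 18757 genes tested, threshold 0.05). The standard error is the log2 fold change divided by the square root of F. For shares and ratios, the two-sided exact permutation test ran over all 20 labelings. Groups come from the labels, which do not say that libraries are separate animals, so p-values measure only the spread between these samples.

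The alternatives were DESeq2 1.42.0 (size factors and Wald test), limma 3.58.1 voom, other totals and filters, the replicate block, and leaving out each library. Chosen after seeing the data were the fits and values without both libraries numbered 2 and a total without AY036118, Gm26917 and muscle rows. Deviations from the group means correlated at 0.166, 0.277 and 0.187 for libraries of the same number and between -0.170 and -0.008 for others. Deviations within a group sum to 0, so positive values for equal numbers go with negative ones elsewhere. The check cannot tell a shared mouse from a shared batch. Only the replicate block and the comparisons within a number use the numbers. The main fit and the permutation tests do not pair libraries. The fit was also run on simulated counts of 18519 genes, with the same spread between libraries for every gene (biological coefficient of variation 12.9%). Genes with a larger spread and single deviating libraries were not simulated, so the rates need not hold for the real libraries. On the simulated counts the fit called 99 of 100 genes changed 2-fold, 100 of 100 changed 4-fold and 12 of 18319 unchanged genes. The fitted differences of the 4 adult haemoglobin genes were smaller, from 1.07-fold for Hbb-bt to 1.27-fold for Hba-a2. Whether the fit calls changes of that size was not tested.

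The members and lists were chosen with earlier results of these data known. Of 164 list entries 163 were matched, 4 by gene ID. Named genes are the 8 members, the first 3 genes of each erythroid, globin and muscle list, the called genes of the erythroid and globin lists, and the 6 genes most like adult haemoglobin. Genes of the other marker lists are given by counts. The values of 3 genes that this rule names are not reported here. Cat was named after its value was seen. Sequences were read from RefSeq (GRCm38.p6) and GENCODE M21 with Biopython 1.88. Transcripts were compared by exact runs of 50 and 100 bases.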

Additional observations from a re-analysis of the deposited data

How the results depend on the processing

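The number of genes called, 1463, was 779 without both libraries numbered 2, and 764 to 1376 when 1 library was left out (764 without radiated library 1, 819 without non-radiated library 2, 905 without non-radiated library 1). Hba-a1, Hba-a2, Hbb-bs and Hbb-bt had positive log2 fold changes in all 16 alternatives, at 0.21 to 0.54, 0.29 to 0.54, 0.27 to 0.54 and 0.06 to 0.29. The highest values came under library totals alone. With the replicate block they were 0.33, 0.35, 0.33 and 0.09, and the block changed no call of a member. The block added 3 calls among the erythroid genes and lost that of Trim58, and lost that of Cygb. Hbb-y, -0.22, ran from -0.52 to 0.15 in the 4 fits with 1 library left out in which it passed the filter, and turned positive without radiated library 1.

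The log2 ratio of the adult share, 0.46, was 0.26 with the TMM effective size and 0.25 with DESeq2 size factors as the total, and stayed positive in all 13 alternatives. The embryonic share, 0.02, turned to -0.20 without AY036118, -0.23 with TMM, -0.24 with DESeq2 size factors, -0.46 without both libraries numbered 2 and -0.10 with the replicate block, and ran from -0.48 to 0.39 with 1 library left out. The Hba-a2 part of adult alpha was -0.46 points without both libraries numbered 2 and ran from -2.29 to 2.23 points with 1 library left out. Adult haemoglobin per haem synthesis count differed by 0.29, against 0.37 per membrane count. The cause of these shifts was not tested. Counts of 0 to 22 per library limit the embryonic genes and Hbb-bh2.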

Other observations

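Within each group the libraries had the same order in the split of the alpha copies and in that of the beta copies. Among non-radiated libraries, number 1 had the highest part of Hba-a2 in adult alpha (61.8%) and of Hbb-bt in adult beta (44.0%), followed by number 3 (57.0% and 42.5%) and number 2 (55.3% and 41.9%). Among radiated libraries, number 3 was highest in both (63.5% and 42.0%), followed by number 2 (57.1% and 37.7%) and number 1 (54.4% and 37.1%). The alpha and beta genes lie on different chromosomes. This pattern was noticed in the data and was not tested, and the split of reads between copies is uncertain in both chains.

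The haemoglobin pseudogenes of the table, Hbb-bh3, Hbb-bh0 and Hba-ps4, looked up after the values were seen, had 0 to 3 counts in every library.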
